A study of Homo sapiens with 4 samples.

Results

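The genes described here are NFE2L2, which encodes the transcription factor NRF2, its regulators, and the glutathione, thioredoxin, peroxiredoxin, aldo-keto reductase, pentose phosphate and iron storage genes known as its targets or as partner antioxidant enzymes. They were chosen by name and known role, as a list of 42 genes, with no threshold on a measured value, though earlier results of these data were known at the choice. A probe of that symbol was on the array for 36 of the 42, and 33 were detected on at least 2 of the 4 arrays, among 11875 detected genes of 20046 genes with a probe. Both groups are sublines of HCT116, a human colorectal cancer line that carries 1 wild-type and 1 mutant copy of *CTNNB1*, the gene of β-catenin. HCT116-MT keeps only the mutant copy, which lacks a serine, and HCT116-WT keeps only the wild-type copy, each made by disrupting the other allele in the parental line and bought from Horizon Discovery. Both were grown in RPMI medium with fetal bovine serum and penicillin/streptomycin, without treatment, and 2 RNA samples of each line were hybridized to Illumina HumanHT-12 v4 BeadChips. Whether the pair of samples of each line were grown as separate cultures is not stated in the sources, and p-values therefore reflect no more than the spread among these 4 samples, which could be technical.

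NRF2 is held in the cytoplasm by KEAP1, which brings it to a ubiquitin ligase and so keeps it short-lived. When oxidants or electrophiles modify cysteines of KEAP1, NRF2 escapes, enters the nucleus, pairs with a small MAF protein and binds antioxidant response elements before genes that make glutathione, thioredoxin, NADPH and detoxifying enzymes. In colorectal tumours, as in other cancers, this program is known for protection against reactive oxygen and for export of drugs, and because NRF2 is controlled mainly as a protein, its own mRNA need not follow its activity.

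The antioxidant genes as a group did not stand on 1 side in HCT116-MT. The study's thresholds were a p under 0.05 and a difference of more than 1.5-fold, and with limma's unadjusted p in their place here 1 of 33 rose, *HMOX1*, and 1 of 33 fell, *FTL*, which is 6.06% of the members beside 7.33% of all genes tested (3.48% higher and 3.86% lower). Adjusted over all genes with the Benjamini-Hochberg method, 0 of 33 members had an adjusted p under 0.05 with limma (smallest 0.374), against 6 of 11875 genes (0.0505%). At an unadjusted p under 0.05 with any fold change there were 4 members, *HMOX1* and *PGD* higher and *FTL* and *ABCC2* lower, beside 10.7% of all genes. This number was 0 without the second HCT116-MT array, 2 without the first HCT116-MT or the second HCT116-WT array, 2 with median scaling, no normalization or limma's trend. The mean was higher in HCT116-MT for 18 members and lower for 15. The median log2 fold change of HCT116-MT over HCT116-WT was 0.01 for the members and -0.00 for all genes, and 30 of 33 members (90.9%) differed by less than 1.5-fold between the lines, beside 89.9% of all genes. In a bulk sample, a lower value from fewer cells that express a gene and from less RNA per cell cannot be told apart.

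**Figure D1:**
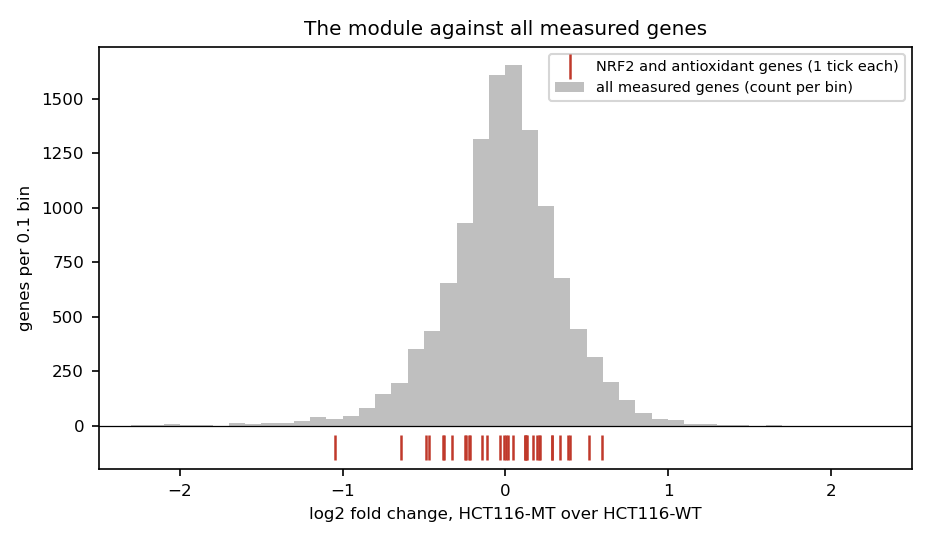
Distribution of the log2 fold change of HCT116-MT over HCT116-WT (horizontal axis) over the 11875 detected genes (vertical axis, number of genes in bins of 0.1), with a tick for each of the 33 detected members. The ticks spread on both sides of 0, from -1.05 for AKR1C3 to 0.59 for HMOX1, with a median of 0.01, and 13 genes lie outside the plotted range.

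Before the member results, the arrays themselves were compared. Between 41.4% and 42.5% of the 47321 probes were detected on each array, and the 2 HCT116-MT arrays correlated at 0.980, against 0.965 for the 2 HCT116-WT arrays and 0.964 to 0.969 for arrays of different lines, so that the HCT116-WT arrays were no more alike than arrays across the lines. *CTNNB1* read 2833 and 2196 in HCT116-MT, against 2143 and 1949 in HCT116-WT (log2 fold change 0.29, limma's adjusted p = 0.683), a probe that checks the amount of mRNA and not the allele. Of 7 detected WNT target genes 4 rose, *AXIN2*, *BMP4*, *SP5* and *NKD1*. *BMP4* was detected in HCT116-MT only (413 and 237, against 105 and 124 in HCT116-WT). It was thus kept only through the line in which it was high. *SP5* and *NKD1* were low in HCT116-WT, at 148 and 169, and 149 and 156. *ZNRF3*, *NOTUM* and *DKK1* had log2 fold changes of 0.04, 0.05 and 0.54, none past the thresholds. *LEF1*, *RNF43* and *LGR5* were detected on fewer than 2 arrays. Of 12 colon epithelium markers 6 were detected, and *EPCAM* and *CDH1* among them fell. *KRT8*, *KRT19* and *GPA33* had a lower and *CDX2* a higher mean in HCT116-MT (log2 fold change 0.19 for *CDX2*), none past the thresholds. *KRT18*, *KRT20*, *CDX1*, *VIL1*, *CDH17* and *LGALS4* were detected on fewer than 2 arrays. The detected markers summed to 17570 and 20870 in HCT116-MT, against 35215 and 30046 in HCT116-WT, with *EPCAM* the largest part on each array. Of 8 leukocyte markers 3 were detected, and *CD68* among them fell (summed levels 1144 and 1391 in HCT116-MT, against 2609 and 3759 in HCT116-WT). *PTPRC*, *CD3D*, *CD3E* and *MS4A1* were detected on fewer than 2 arrays. Of 9 fibroblast and endothelium markers 4 were detected, with 0 past the thresholds. The first HCT116-WT array stood apart in interferon-stimulated genes, whose 13 detected members summed to 14438 and 14402 in HCT116-MT, against 123657 and 31278 in HCT116-WT. Their part in the results was not tested, and both HCT116-WT arrays are given each time.

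NRF2 with a small MAF protein binds an element whose core is TGACNNNGC, and these letters were searched on both strands in the 250 bases before each start site in the RefSeq promoter table (GRCh38.p14). Windows were found for 33 of the 42 members, 48 in all. A match in any of its windows was held by 8 of the 33 genes (24.2%), beside 13.2% of 27305 genes with a window. A gene may have several windows, and by window the shares were 18.8% of 48 and 10.9% of 35116. The members were listed as known NRF2 targets or partner enzymes, and the difference in shares was not tested. The core overlaps in part with TGACTCA, the AP-1 element. The matches in 3 members are printed 5′ to 3′ on the strand of the gene. Each has 25 bases on each side and the core in capitals. GCLM and PGD were chosen because they had the highest mean differences among matched members, and GSTP1 because its match also spells the AP-1 letters. In GCLM and PGD the match is on the other strand, so their capitals spell the reverse complement of the core.
GCLM: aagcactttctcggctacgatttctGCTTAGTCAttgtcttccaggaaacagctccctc
PGD: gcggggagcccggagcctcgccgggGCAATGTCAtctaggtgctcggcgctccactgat
GSTP1: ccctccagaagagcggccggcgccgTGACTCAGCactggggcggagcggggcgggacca
They lie at chr1:93909431-93909489 on the minus strand, chr1:10398838-10398896 on the plus strand and chr11:67583721-67583779 on the plus strand.

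The matched members that were detected are *GCLM*, *GSTM1*, *GSTO1*, *GSTP1*, *KEAP1*, *PGD* and *TXNRD1*, and their log2 fold changes ran from -0.11 to 0.51 (median 0.22, 5 with a higher and 2 with a lower mean in HCT116-MT). The 19 detected members with a window and no match ran from -1.05 to 0.29 (median -0.22, 7 with a higher and 12 with a lower mean). This describes genes by letters in a short window and was not tested. A gene without a match, *NQO1*, *GCLC* and *SRXN1* among them, may hold elements farther away. *HMOX1*, *GSS*, *GSR*, *PRDX1*, *PRDX6*, *SOD1* and *AKR1B10* had no window and are in neither group. *FTL* belongs to the second group, and its window is shown because it was the member that fell. It holds 0 matches in the 250 bases at chr19:48965059-48965308 on the plus strand, which says nothing of elements farther away.
FTL: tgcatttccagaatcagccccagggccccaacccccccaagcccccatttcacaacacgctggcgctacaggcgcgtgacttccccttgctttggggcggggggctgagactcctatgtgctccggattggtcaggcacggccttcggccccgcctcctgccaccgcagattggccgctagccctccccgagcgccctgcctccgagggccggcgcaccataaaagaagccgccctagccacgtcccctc

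All intensities below are quantile-normalized intensities in arbitrary units, given for the first and the second array of each line. Levels of different probes are not set against each other. Each SE and interval below rests on limma's moderated spread, in which the spread of a gene is drawn toward that of all kept probes. *NFE2L2* read 2021 and 2068 in HCT116-MT, against 3200 and 1823 in HCT116-WT (log2 fold change -0.24 ± 0.29 as SE with n = 2 each, and limma's adjusted p = 0.818). The HCT116-MT arrays were close together and lay between the HCT116-WT arrays, of which the first was the highest of the 4. The 95% confidence interval ran from 0.511 to 1.40 times the HCT116-WT level. *KEAP1*, the NRF2 inhibitor, read 676 and 969 in HCT116-MT, against 1156 and 575 in HCT116-WT (log2 fold change -0.01 ± 0.38 SE, limma's adjusted p = 0.998). The HCT116-WT arrays were here the highest and the lowest of the 4, and the second probe of the gene had the same order, with 639 and 921 in HCT116-MT, against 1154 and 501 in HCT116-WT. *SQSTM1* encodes p62, which competes with NRF2 for KEAP1 and sends KEAP1 to autophagy. It read 8102 and 10770 in HCT116-MT, against 15991 and 10436 in HCT116-WT (log2 fold change -0.47 ± 0.28 SE, limma's adjusted p = 0.617), and the lines overlapped because the second HCT116-WT array lay between the HCT116-MT arrays. All 3 genes were highest on the first HCT116-WT array, and in all 3 the HCT116-WT arrays differed by more than 1.5-fold. Without that array the log2 fold change was 0.17 for *NFE2L2*, 0.49 for *KEAP1* and -0.16 for *SQSTM1*. Without the second HCT116-WT array it was -0.65 for *NFE2L2*, -0.51 for *KEAP1* and -0.78 for *SQSTM1*. Each of these fits leaves 1 HCT116-WT array, so only the size of the difference is given.

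**Figure D2:**
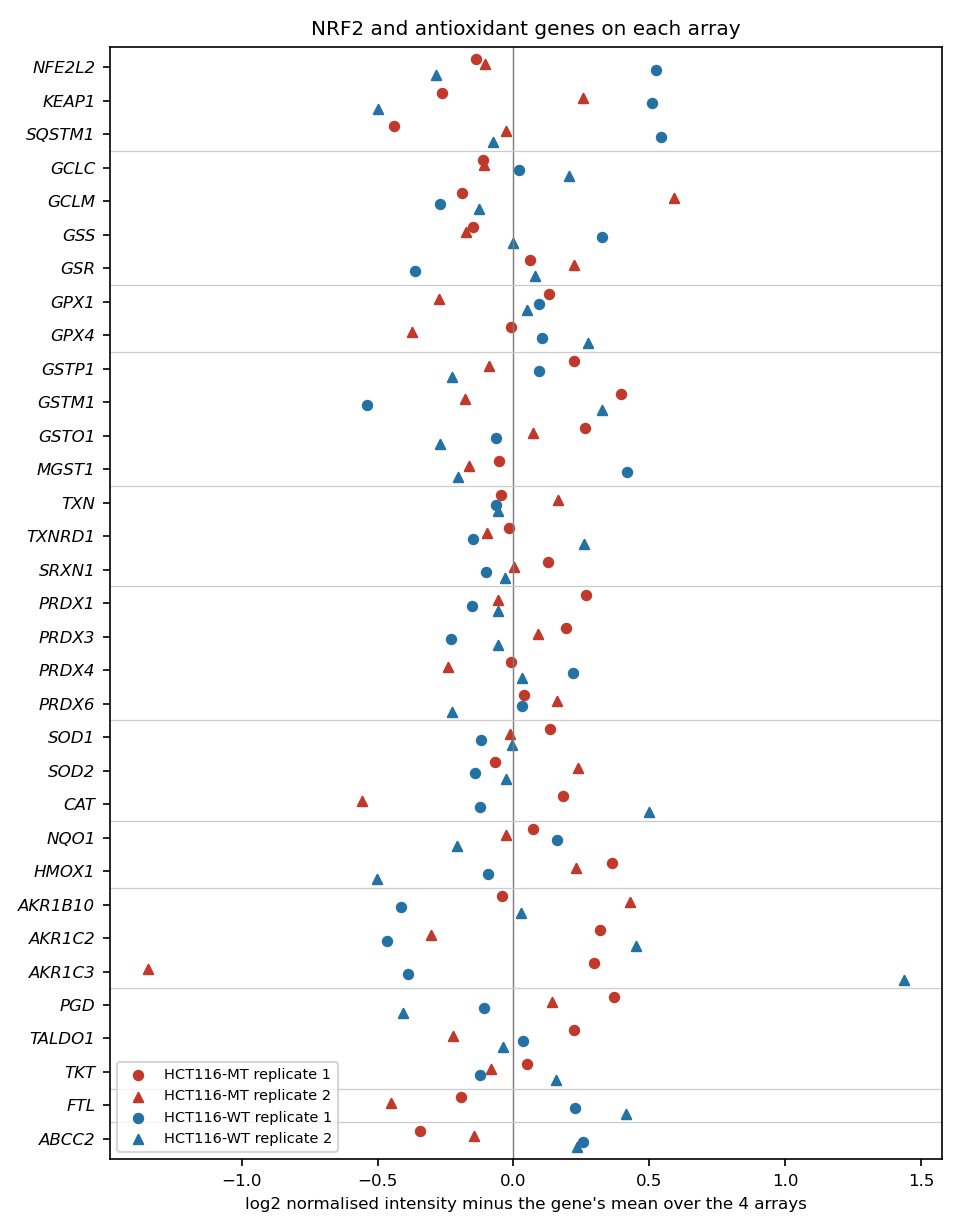
Normalized intensity on each array as log2 minus the mean of the gene over the 4 arrays (horizontal axis) for the 33 detected members (vertical axis, by role), with HCT116-MT in red and HCT116-WT in blue, circles for replicate 1 and triangles for replicate 2. The lines are apart for 13 genes, 7 with HCT116-MT above and 6 with HCT116-MT below, and AKR1C3 has the widest spread within both lines.

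The genes of glutathione synthesis and recycling showed no change past the test and no shared direction. *GCLC*, the catalytic subunit of glutamate-cysteine ligase, which makes the first bond of glutathione, read 852 and 855 in HCT116-MT, against 934 and 1062 in HCT116-WT (log2 fold change -0.22 ± 0.17 SE). *GCLM*, the modifier subunit of the same enzyme, read 1065 and 1830 in HCT116-MT, against 1007 and 1113 in HCT116-WT (log2 fold change 0.40 ± 0.29 SE, limma's adjusted p = 0.689). The mean differences of the subunits had opposite signs, but neither passed the test (limma's adjusted p = 0.715 for *GCLC*). *GCLC* was below HCT116-WT on both arrays, while *GCLM* had overlapping lines and was high on 1 HCT116-MT array. Without that second HCT116-MT array the log2 fold change of *GCLM* was 0.008. Its match to the NRF2 core is printed above, and its second probe gave a log2 fold change of 0.04. *GSS*, glutathione synthetase, read 1382 and 1356 in HCT116-MT, against 1921 and 1530 in HCT116-WT, both arrays below. *GSR*, which reduces oxidized glutathione with NADPH, read 901 and 1008 in HCT116-MT, against 671 and 911 in HCT116-WT, with overlapping lines.

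Glutathione peroxidases reduce peroxides at the expense of glutathione. *GPX4*, the member that reduces lipid peroxides in membranes and restrains ferroptosis, read 8248 and 6406 in HCT116-MT, against 8921 and 10044 in HCT116-WT (log2 fold change -0.38 ± 0.20 SE, limma's adjusted p = 0.581). Both HCT116-MT arrays were below both HCT116-WT arrays, and the second probe gave -0.40. Over left-out arrays the log2 fold change ran from -0.56 to -0.20. *GPX1*, the main cytosolic form, read 9812 and 7421 in HCT116-MT, against 9558 and 9275 in HCT116-WT, so that the lines overlapped. *GPX2*, the form of the gut epithelium, was not detected on 2 arrays.

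Glutathione transferases attach glutathione to electrophiles. *GSTO1*, of the omega class, read 7729 and 6784 in HCT116-MT, against 6169 and 5340 in HCT116-WT (log2 fold change 0.34 ± 0.18 SE, limma's adjusted p = 0.593), with HCT116-MT above on both arrays and a log2 fold change of 0.36 for a second probe. *GSTP1*, the pi class enzyme that is abundant in tumours, read 17031 and 13693 in HCT116-MT, against 15561 and 12483 in HCT116-WT, a smaller difference than between the arrays of either line. *GSTM1*, of the mu class, read 1672 and 1122 in HCT116-MT, against 874 and 1591 in HCT116-WT. Here each line held 1 high and 1 low array, and the family has near-identical copies that probes may share. *MGST1*, a membrane-bound transferase, read 3275 and 3030 in HCT116-MT, against 4538 and 2946 in HCT116-WT, with the first HCT116-WT array highest. *GSTM3* was not detected on 2 arrays.

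In the thioredoxin system, TXN reduces protein disulfides, TXNRD1 recycles it with NADPH, and SRXN1 repairs over-oxidized peroxiredoxins. *TXN* read 16378 and 18931 in HCT116-MT, against 16183 and 16255 in HCT116-WT (log2 fold change 0.12). *TXNRD1* read 4012 and 3799 in HCT116-MT, against 3663 and 4865 in HCT116-WT (log2 fold change -0.11). *SRXN1* read 3741 and 3424 in HCT116-MT, against 3194 and 3353 in HCT116-WT (log2 fold change 0.13). For *TXN* and *SRXN1* the HCT116-MT arrays were above. A second *TXN* probe read 11790 and 16025 in HCT116-MT, against 10401 and 13119 in HCT116-WT, which overlap. For *TXNRD1* the HCT116-MT arrays lay between the HCT116-WT arrays. In all 3 genes limma's moderated SE, which is not the spread of the gene's own arrays alone, was larger than the difference.

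Of the peroxiredoxins, which remove hydrogen peroxide with electrons from thioredoxin or glutathione, 4 were detected and 0 passed the test. *PRDX3*, the mitochondrial form, read 8568 and 7983 in HCT116-MT, against 6392 and 7204 in HCT116-WT (log2 fold change 0.29). *PRDX6*, which uses glutathione, read 6149 and 6680 in HCT116-MT, against 6111 and 5112 in HCT116-WT (log2 fold change 0.20). HCT116-MT was above on both arrays for these 2 genes. *PRDX1*, the cytosolic form and a classic NRF2 target, read 23323 and 18654 in HCT116-MT, against 17469 and 18654 in HCT116-WT, where 1 array of each line had the same value. Its second probe had HCT116-MT above on both arrays, with 20777 and 19454 in HCT116-MT, against 17712 and 19232 in HCT116-WT. *PRDX4*, the form of the endoplasmic reticulum, went the other way, with 10374 and 8825 in HCT116-MT, against 12137 and 10673 in HCT116-WT (log2 fold change -0.25). All of these differences were under 1.5-fold.

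*SOD1* and *SOD2*, the cytosolic and the mitochondrial superoxide dismutase, read 18931 and 17079, and 1931 and 2385, in HCT116-MT, against 15875 and 17159, and 1836 and 1984, in HCT116-WT. Their log2 fold changes were 0.12 and 0.17, and the lines overlapped for both genes. *CAT*, catalase of the peroxisome, read 2139 and 1284 in HCT116-MT, against 1734 and 2664 in HCT116-WT (log2 fold change -0.38 ± 0.33 SE, limma's adjusted p = 0.749). The arrays of both lines were interleaved, and the 95% interval ran from 0.436 to 1.36 times the HCT116-WT level. Over left-out arrays the log2 fold change ran from -0.74 to -0.01.

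*NQO1*, the quinone reductase that is widely used as a readout of NRF2 activity, read 5183 and 4841 in HCT116-MT, against 5512 and 4269 in HCT116-WT (log2 fold change 0.05 ± 0.20 SE, limma's adjusted p = 0.966). Both HCT116-MT arrays lay between the HCT116-WT arrays, and the 95% interval of the ratio ran from 0.732 to 1.46. *HMOX1*, heme oxygenase, which splits heme into biliverdin, carbon monoxide and iron, was the member that rose. It read 385 and 351 in HCT116-MT, against 281 and 212 in HCT116-WT, so that the lines did not overlap. The fold change was 1.51 (log2 fold change 0.59 ± 0.21 SE, limma's adjusted p = 0.423), just past the fold threshold. The gene has 1 probe, with low intensities, and the size depended on the processing. The log2 fold change was 0.44 with no normalization and 0.87 with neqc background correction. *HMOX1* stayed past the thresholds in 8 of 15 other ways of processing, and when single arrays were left out it passed only without the first HCT116-WT array, with log2 fold changes from 0.39 to 0.80.

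**Figure D3:**
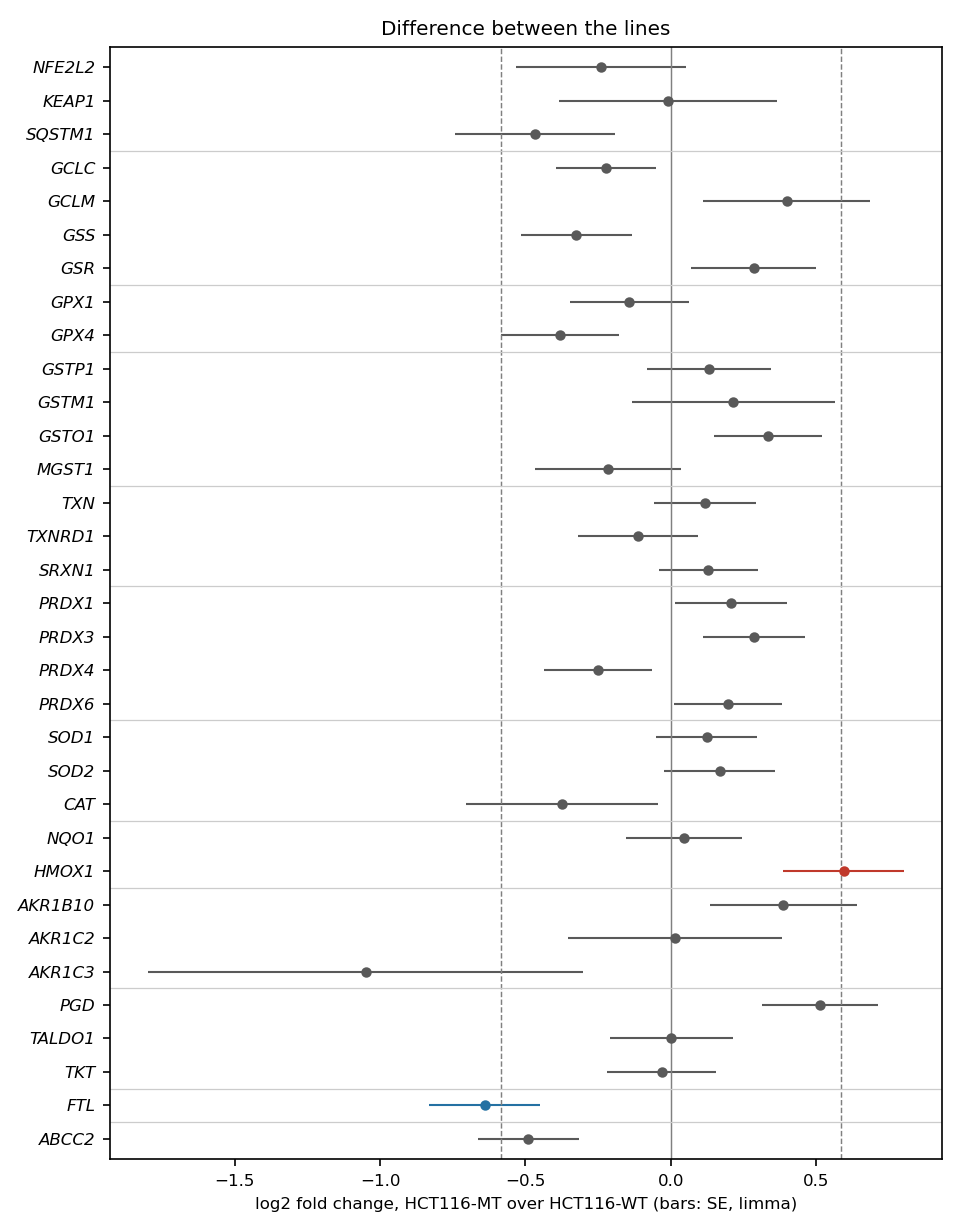
Log2 fold change of HCT116-MT over HCT116-WT (horizontal axis, points) for the 33 detected members (vertical axis, by role). Bars show limma's moderated standard error (n = 2 each), and dashed lines mark a fold change of 1.5. HMOX1 (red, 0.59) is higher and FTL (blue, -0.64) lower at the thresholds of the study, and for 15 members the standard error is larger than the difference.

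The aldo-keto reductases reduce aldehydes and ketones, AKR1B10 those of retinal and lipid breakdown and the AKR1C enzymes also steroids. *AKR1C3* had the widest values of all members, 535 and 172 in HCT116-MT, against 333 and 1180 in HCT116-WT (log2 fold change -1.05 ± 0.75 SE, limma's adjusted p = 0.689). The lines overlapped, and the 2 arrays of each line differed more than the lines did, by 1.64 in HCT116-MT and -1.83 in HCT116-WT on the log2 scale (first minus second). Over left-out arrays its log2 fold change ran from -1.96, past the thresholds, without the first HCT116-WT array to -0.14. *AKR1C2* had the same direction within each line, with 220 and 143 in HCT116-MT, against 128 and 241 in HCT116-WT. These values are from the 1 kept probe of 6 for *AKR1C2*, and the others were detected on 0 arrays. *AKR1B10* read 166 and 231 in HCT116-MT, against 129 and 175 in HCT116-WT (log2 fold change 0.39 ± 0.25 SE, limma's adjusted p = 0.660, 0.15 to 0.62 over left-out arrays). *AKR1C2* and *AKR1B10* were dim and were detected on 1 of the 2 HCT116-WT arrays, and the AKR1C genes are close copies whose probes may share transcripts. *AKR1C1* was not detected on 2 arrays.

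The direction of *AKR1C3* within each line recurred in other members, with the first HCT116-MT array above the second and the first HCT116-WT array below the second. *AKR1C2* differed between arrays by 0.62 in HCT116-MT and -0.92 in HCT116-WT on the log2 scale (first minus second), *GSTM1* by 0.58 and -0.87, and *CAT* by 0.74 and -0.62. *KEAP1* had the opposite direction, -0.52 in HCT116-MT and 1.01 in HCT116-WT. Across the 33 members the difference between arrays in HCT116-MT and that in HCT116-WT correlated at -0.61 (Pearson) and -0.33 (Spearman), values that share 4 arrays and are a description without a test. Without *AKR1C2* and *AKR1C3* they were -0.30 and -0.19, and over all genes they were -0.01 and -0.12. The HCT116-WT arrays differed by more than 1.5-fold for 8 members (24.2%, beside 18.8% of all genes) and the HCT116-MT arrays for 4 (12.1%, beside 9.87%).

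**Figure D4:**
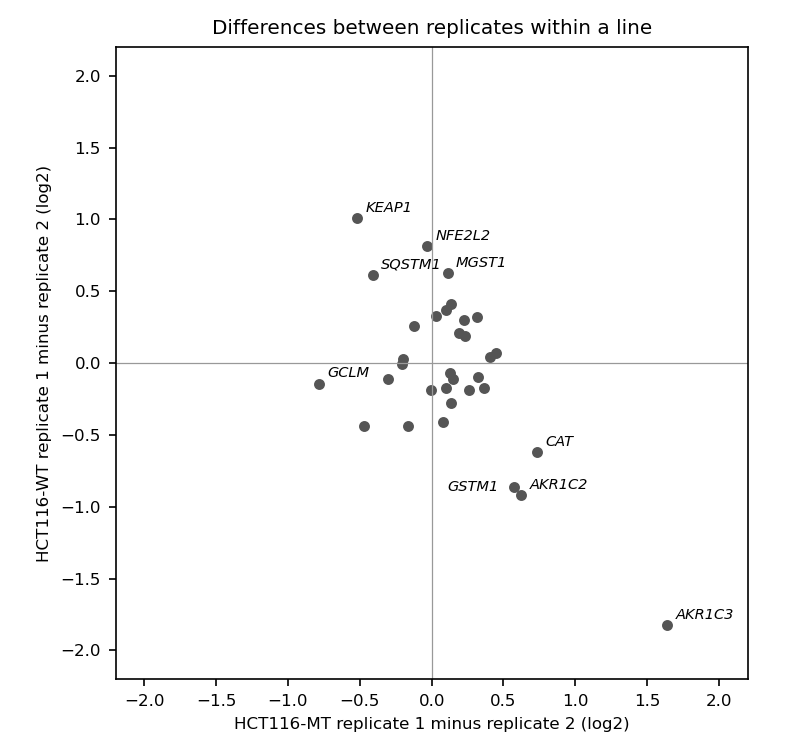
Difference between replicate 1 and replicate 2 on the log2 scale in HCT116-MT (horizontal axis) and in HCT116-WT (vertical axis), a point per detected member. AKR1C3 lies farthest out at 1.64 and -1.83, with AKR1C2, GSTM1 and CAT on the same side, and KEAP1 lies on the opposite side at -0.52 and 1.01.

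Among the pentose phosphate enzymes, *PGD*, which makes NADPH in the oxidative branch, read 2721 and 2324 in HCT116-MT, against 1954 and 1587 in HCT116-WT. HCT116-MT was above on both arrays, by 1.43-fold (log2 fold change 0.51 ± 0.20 SE, limma's adjusted p = 0.459), with an unadjusted p under 0.05 but under the fold threshold. That p was above 0.05 with neqc background correction, median scaling, cyclic loess or no normalization. It was also above 0.05 with a detection p-value under 0.01, with limma's trend and with the test used in place of limma. The log2 fold change of *PGD* ran from 0.36 to 0.66 over left-out arrays. Its NRF2 core match is the second of those printed above. *TALDO1* and *TKT*, which interconvert sugars in the branch that makes no NADPH, had log2 fold changes of 0.00 and -0.03. *TALDO1* read 8845 and 6496 in HCT116-MT, against 7759 and 7384 in HCT116-WT, and *TKT* read 6905 and 6294 in HCT116-MT, against 6117 and 7421 in HCT116-WT, so that the lines overlapped for both.

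*FTL*, the light chain of ferritin, in which cells store iron, was the member that fell. It read 13660 and 11423 in HCT116-MT, against 18249 and 20777 in HCT116-WT, and a second probe read 12702 and 10301 in HCT116-MT, against 16255 and 19661 in HCT116-WT. On both probes all HCT116-MT values were below all HCT116-WT values. HCT116-WT was higher by 1.56-fold (log2 fold change -0.64 ± 0.19 SE, limma's adjusted p = 0.374), and the second probe gave the same log2 fold change of -0.64 ± 0.21 SE. Its window, printed above, held no core match. *FTL* passed the thresholds in 12 of 15 other ways of processing, with log2 fold changes between -0.77 and -0.51 when single arrays were left out, and it failed without the second array of HCT116-MT or of HCT116-WT. *ABCC2*, an apical pump that exports glutathione and glucuronide conjugates, read 331 and 379 in HCT116-MT, against 501 and 493 in HCT116-WT. HCT116-MT was below on both arrays, and HCT116-WT was 1.40-fold higher (log2 fold change -0.49 ± 0.17 SE, limma's adjusted p = 0.430). The unadjusted p of *ABCC2* was under 0.05, but the change was short of the fold threshold. Limma's unadjusted p was 0.067 with the trend and 0.055 with the replicate block. Over left-out arrays the log2 fold change of *ABCC2* ran from -0.59 to -0.39.

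The arrays of the lines did not overlap for 13 of 33 members (39.4%), beside 39.9% of all genes. HCT116-MT was above for 7, *GSTO1*, *TXN*, *SRXN1*, *PRDX3*, *PRDX6*, *HMOX1* and *PGD*, beside 20.7% of all genes, and below for 6, *GCLC*, *GSS*, *GPX4*, *PRDX4*, *FTL* and *ABCC2*, beside 19.1%. The shares of the members are close to those of all genes. The first HCT116-MT array was the highest of the 4 for 11 members (33.3%, beside 22.2% of all genes), and the first HCT116-WT array was the lowest for 13 (39.4%, beside 23.8%). A probe of the symbol was not found for *PRDX2*, *PRDX5*, *AKR1B1*, *FTH1* (the ferritin heavy chain), *ABCC1* and *OSGIN1*, which were not analysed here.

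Other genes of the same pathways were counted from a list of 111 genes, of which 84 were detected. At the thresholds of the study 5 rose and 2 fell (8.33%, beside 7.33% of all genes), and 0 had an adjusted p under 0.05 with limma (smallest 0.120). With limma's unadjusted p under 0.05 at any fold there were 14 of 84, beside 10.7% of all genes. Their median log2 fold change was 0.03. The group of other thioredoxin and glutaredoxin genes also held genes of other kinds, *MSRA*, *MSRB1*, *MSRB2*, *MSRB3*, *SESN1*, *SESN2*, *SESN3* and *CCS*. In it 4 of 15 rose (26.7%, beside 3.48% of all genes), *GLRX3*, *TXNL1*, *MSRB1* and *MSRB3*, and 0 fell. Its median was 0.30, with a lower mean for 5, among them *MSRB2* at -0.64 and *TXNRD2* at -0.56. *MSRB2* passed the thresholds as lower with the replicate block and without the first HCT116-MT array. Of the other conjugate transporters 1 of 4 rose and 1 fell (50%, beside 7.33% of all genes). In the remaining groups 0 rose. These were NRF2 partners, competitors and degradation (15 detected, 1 fell), glutathione supply and turnover (8), and other peroxidases and transferases (10). The rest were other NRF2-linked reductases and conjugation (14), NADPH supply (10), and heme and iron handling (8).

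*GLRX3*, a glutaredoxin that carries iron-sulfur clusters, read 1542 and 1718 in HCT116-MT, against 598 and 602 in HCT116-WT, 2.71-fold higher (log2 fold change 1.44 ± 0.17 SE, limma's adjusted p = 0.120), and a second probe gave 1.56. *TXNL1*, a thioredoxin-like protein of the proteasome, read 661 and 619 in HCT116-MT, against 405 and 332 in HCT116-WT (log2 fold change 0.80 ± 0.19 SE, limma's adjusted p = 0.318). In both genes the lines differed by more than the arrays within a line. *MSRB1* and *MSRB3* repair oxidized methionine. *MSRB1* read 2310 and 2944 in HCT116-MT, against 1452 and 1795 in HCT116-WT (log2 fold change 0.69 ± 0.22 SE, limma's adjusted p = 0.385). *MSRB3* read 946 and 772 in HCT116-MT, against 630 and 437 in HCT116-WT (log2 fold change 0.70 ± 0.24 SE, limma's adjusted p = 0.416), and its second probe, at 0.55, was not past the thresholds.

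Among the conjugate pumps related to *ABCC2*, 1 rose and 1 fell. *ABCC4*, which exports cyclic nucleotides and conjugates, read 1494 and 1442 in HCT116-MT, against 807 and 636 in HCT116-WT, 2.05-fold higher (log2 fold change 1.04 ± 0.19 SE, limma's adjusted p = 0.234). *ABCC3*, a basolateral pump of glucuronides, read 846 and 1108 in HCT116-MT, against 2592 and 1711 in HCT116-WT, which was 2.18-fold higher (log2 fold change -1.12 ± 0.27 SE, limma's adjusted p = 0.318). The lines did not overlap for either pump. *SYVN1*, a ubiquitin ligase of the endoplasmic reticulum that can act on NRF2, read 881 and 801 in HCT116-MT, against 1193 and 1680 in HCT116-WT (log2 fold change -0.75 ± 0.22 SE, limma's adjusted p = 0.376), and a second probe gave -0.27. When single arrays were left out, *GLRX3*, *TXNL1*, *ABCC4* and *ABCC3* passed the thresholds each time. *MSRB1* failed without the second HCT116-MT or the first HCT116-WT array (range of log2 fold changes over left-out arrays 0.52 to 0.87), and *MSRB3* (0.44 to 0.97) and *SYVN1* (-0.51 at its nearest to 0) passed only without the first HCT116-WT array.

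**Figure D5:**
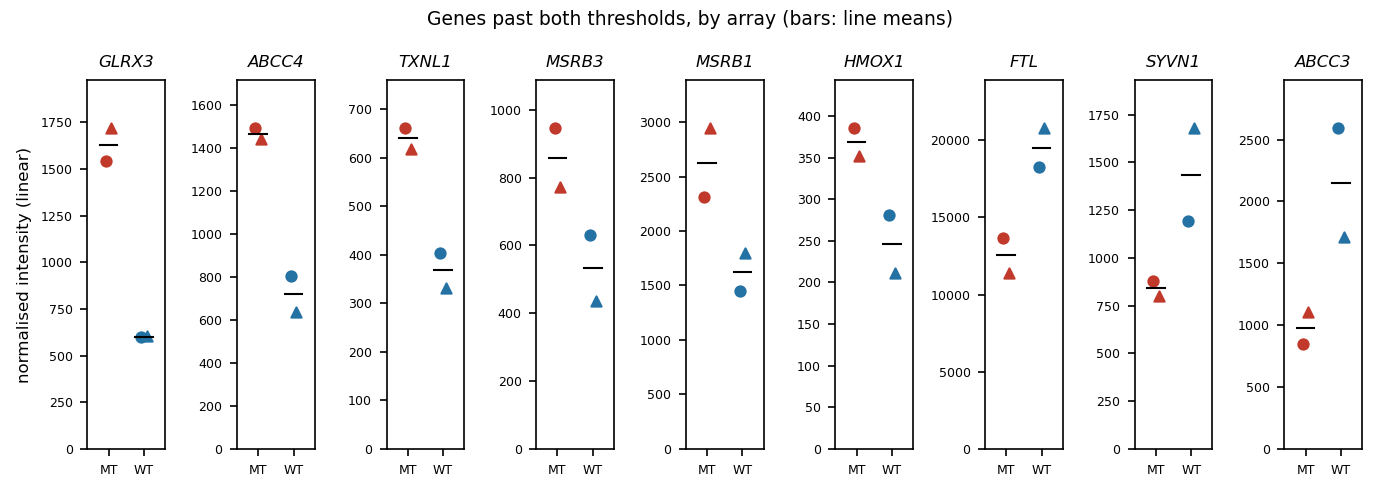
Quantile-normalized intensity (vertical axes, arbitrary units, starting at 0) of the 2 members and 7 related genes past the thresholds of the study, with HCT116-MT left of HCT116-WT, circles for replicate 1, triangles for replicate 2 and bars for the means. In each panel both HCT116-MT arrays lie on 1 side of both HCT116-WT arrays, and GLRX3 is farthest apart, at 1542 and 1718 in HCT116-MT against 598 and 602 in HCT116-WT.

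The detected genes next to these 9 genes on the chromosome were set beside them, 5 on each side. Around *GLRX3* on chromosome 10, 9 of 10 neighbours had a higher mean in HCT116-MT and 4 of them rose (median log2 fold change 0.49), and around *ABCC4* on chromosome 13, 7 of 10 had a higher mean and 3 rose (median 0.37). *TXNL1* had 9 of 10 neighbours with a higher mean and 0 that rose (median 0.24), and *FTL* had 2 of 10 with a higher mean and 2 that fell (median -0.19). The neighbours of *HMOX1* had a median of 0.09, with 1 that rose and 1 that fell. Those of *SYVN1* (4 of 10 with a higher mean), *MSRB1*, *MSRB3* and *ABCC3* (5 of 10 each) had medians between -0.02 and 0.01, with 1 neighbour of *SYVN1* that fell. Of all 11875 genes 5934 had a higher mean in HCT116-MT and 3.48% rose. The part of the copy number of these regions in the values was not tested.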

How the data were processed

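Total RNA of 2 HCT116-MT and 2 HCT116-WT samples was measured on Illumina HumanHT-12 v4 arrays. The authors extracted intensities with GenomeStudio v2011.1, and the deposited table holds, for each of 47321 probes and each array, an intensity not normalized between arrays. Beside it stands a deposited detection p-value, set against negative control beads. The methods name quantile normalization and an integrated statistical method that they do not describe, with thresholds of p under 0.05 and fold change over 1.5, and do not say whether p was adjusted; limma's unadjusted p was used for them. The series table was not used, because many of its rows hold values that the first table lists under another probe ID. Here log2 intensities were quantile-normalized, and 20579 probes detected (p-value under 0.05) on 2 or more arrays were kept.

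The lines were compared (HCT116-MT minus HCT116-WT) by limma, version 3.58.1, under R 4.3.3, over all kept probes. The brightest kept probe stood for a gene, and p-values were adjusted with Benjamini-Hochberg over 11875 genes. With 2 arrays against 2 an exact permutation test cannot go below a two-sided p of 0.333, so none was used. By the probe table, 30112 probes had 1 symbol, 8 had several and 17201 had none. The members had 64 probes, of which 48 were kept. The number of arrays limits the precision, and the chip position of the samples is not given in the sources used here.

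Members and lists were chosen with earlier results of these data known. Full statistics are given for members past the study thresholds, the 10 with the largest absolute log2 fold change, *NFE2L2*, *KEAP1*, *NQO1* and *HMOX1*, and members whose probes differ in sign or call. Related genes past the thresholds are named. *GSTO1* has its statistics outside this rule, chosen after its values were seen. Alternatives were background correction, normalization, detection filter, test, probe summary, replicate block and leaving out each array. The limma fit and the thresholds were tested on simulated arrays, but not the normalization, the detection filter, the choice of probe or the promoter search. Plots were made in Python 3.11.15 (matplotlib 3.10.9).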

Additional observations from a re-analysis of the deposited data

How the results depend on the processing

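The number of members that rose (1) became 0 with median scaling, cyclic loess, no normalization and Student's test, and 0 to 2 when single arrays were left out. The number that fell (1) became 2 with neqc background correction, median scaling and no normalization (*ABCC2* beside *FTL*) and 0 with Student's test, and 0 to 2 when single arrays were left out. It was 0 without the second HCT116-MT array, *AKR1C3* and *FTL* without the first HCT116-WT array, and *NFE2L2* and *SQSTM1*, not *FTL*, without the second. *GCLM* rose only without the first HCT116-MT array and *PGD* only without the first HCT116-WT array. The member median (0.01) ran from -0.072 to 0.069 over left-out arrays. Of the related genes, 5 rose, 3 with no normalization and 3 with Student's test, and 4 to 10 over left-out arrays. The 2 that fell became 5 with no normalization, 0 with Student's test and 1 with the mean of the kept probes, and 1 to 8 over left-out arrays. Their median (0.03) was -0.092 with no normalization and ran from -0.14 to 0.12 over left-out arrays. Over all genes the 871 calls became 327 with Student's test and 528 to 1660 over left-out arrays. The share of higher calls over all genes was 47.4%, but 32.7% with median scaling, 37.6% with cyclic loess and 17.8% with no normalization, which moved the median of all genes to -0.12. Genes with an adjusted p under 0.05 numbered 6, against 17 with limma's trend, 12 with neqc, 2 with median scaling, 1 with Student's test, 0 with the replicate block and 0 to 64 over left-out arrays, with 0 members in every setting. The difference of *KEAP1* turned to 0.0014 with the mean of the kept probes and ran from -0.51 to 0.49 over left-out arrays. That of *NFE2L2* ran from -0.65 to 0.17 over left-out arrays. That of *NQO1* was -0.0020 with cyclic loess and -0.022 with no normalization, and ran from -0.14 to 0.23. *GLRX3* and *ABCC4* passed in all 15 alternatives. Samples of the same number did not deviate together (r = 0.05 over kept probes), and with the replicate block 1 member rose (*HMOX1*), 1 fell (*FTL*), and 954 genes passed in all. Members at an unadjusted p under 0.05 (4) numbered 1 with Student's test and 0 to 4 over left-out arrays. The causes of these shifts were not tested. Each fit with a left-out array leaves 1 array in that line, so its calls describe the dependence on single arrays only. Dim genes such as *AKR1B10* and *AKR1C2* lie near the detection limit.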
